A study of Mus musculus with 9 samples.

Results

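The replication-dependent histone genes are the clustered genes that make the bulk of histone H1, H2A, H2B, H3 and H4. They were taken here as every non-control probe whose gene name on the array starts with Hist1h, Hist2h, Hist3h or Hist4h. This gave 56 gene names with 68 probes, of 37074 gene names with 56605 probes on the array, and all 68 probes passed the filter on dim signal. By type there were 6 genes with 8 probes for H1, 18 genes with 21 probes for H2A, 14 genes with 18 probes for H2B, 9 genes with 10 probes for H3, and 9 genes with 11 probes for H4. By cluster there were 42 genes with 48 probes in Hist1, 10 genes with 14 probes in Hist2, 3 genes with 5 probes in Hist3, and 1 gene with 1 probe in Hist4.

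The series asked how gene expression in mouse megakaryocytes, the marrow cells that shed platelets, differed after ionising radiation (IR). The 9 arrays fall into 3 groups of 3. Ctrl came from mice handled as sham-irradiated controls, 1 dpi from mice at day 1 after a total body dose of 5 Gy of gamma rays, and 3 dpi from mice at day 3 after the same dose. All mice were male by the labels, the methods name C57BL/6 as the strain, no allele or agent other than the dose is given, and age is not stated. The series design gives 3 independent experiments per time with different donors. The megakaryocytes were taken from femur and tibia marrow by red cell lysis and positive selection for CD41 and then CD42d, so a group holds the cells kept by those antigens. Cy3 cRNA was made from 0.5 ug of RNA by linear amplification. The study's methods describe an Affymetrix chip, while the deposited files are single-colour Agilent array scans annotated on mm9, and every value here comes from those scans.

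Histone mRNAs of this family are made in S phase, when new DNA needs new nucleosomes. They end in a conserved stem-loop in place of a poly(A) tail, and stem-loop binding protein (Slbp) carries them through processing and translation. Some of the genes also give longer polyadenylated transcripts that run past the stem-loop, chiefly in cells that have left the cycle. How well the labelling read transcripts without a poly(A) tail was not tested. The levels below are therefore those of the RNA that was labelled. Megakaryocytes replicate their DNA repeatedly without dividing while they mature.

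The label was checked against 20 megakaryocyte marker genes with 31 probes, and no gene was in background. Their summed level, on a linear scale with each array's 75th percentile set to 1, was 270.2, 238 and 238 on the Ctrl arrays, 242, 226 and 221 on the 1 dpi arrays, and 259, 255 and 252 on the 3 dpi arrays. Platelet factor 4 (Pf4) was the brightest of these genes. Of their 30 probes tested, 8 rose and 10 fell at 1 dpi, where 33.5% and 21.8% of all probes did. At 3 dpi 11 rose and 7 fell, where 16.2% and 16.5% of all probes did.

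Markers of other cell types were also above background and differed strongly between the groups. The summed level of 12 B cell genes was 55.9, 52.2 and 53.2 on the Ctrl arrays, 11.6, 11.3 and 11.5 at 1 dpi, and 14.4, 13.9 and 13.8 at 3 dpi. That of 10 stromal genes was 19.4, 19.0 and 20.1 on the Ctrl arrays, 100.3, 87.4 and 94.2 at 1 dpi, and 189.6, 172 and 187 at 3 dpi. The neutrophil list had the largest sum of the marker lists, above that of the megakaryocyte list on every array. It was 2251, 2328 and 2315 on the Ctrl arrays, 3695, 3507 and 3482 at 1 dpi, and 2481, 2257 and 2372 at 3 dpi. The erythroid list summed to 273, 219.9 and 234, then 609, 535 and 535, then 143, 143 and 139. The lists differ in their number of probes, so the sums do not give shares of cells. The arrays thus read markers of other cells in every group, and for the histone genes fewer cells of a type and less RNA per cell cannot be told apart.

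**Figure D1:**
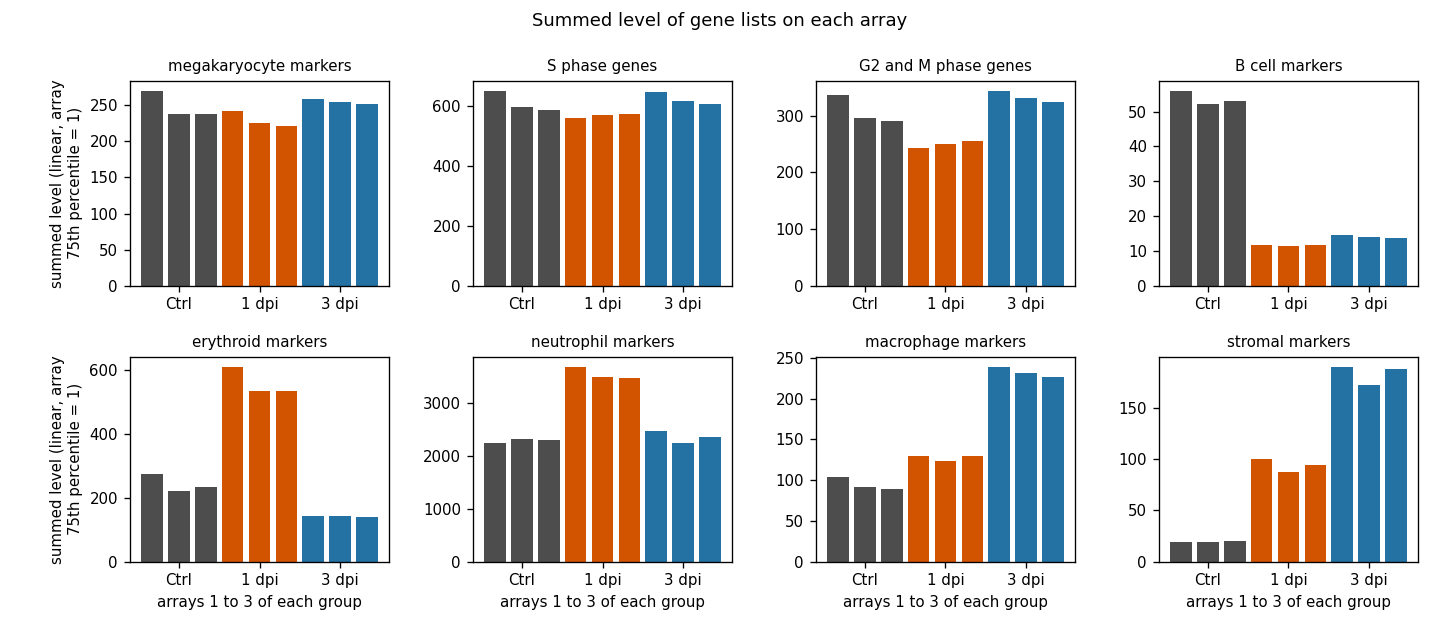
Summed level of 8 gene lists on each of the 9 arrays (linear scale, each array's 75th percentile set to 1; each bar is 1 array). The B cell list drops from 52.2 or more on the Ctrl arrays to 14.4 or less on the others, and the stromal list climbs from 20.1 or less to 172 or more at 3 dpi.

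The arrays differed in overall brightness. The 75th percentile of the log2 signal was 9.52, 10.12 and 10.15 on the Ctrl arrays, 8.85, 8.96 and 8.94 at 1 dpi, and 9.85, 10.04 and 10.02 at 3 dpi. Ctrl replicate 1 was scanned on a slide of its own and the other 8 arrays shared a slide. Between 67.7% and 81.0% of all probes and between 65 and 68 of the 68 histone probes were well above background on an array. No histone probe was saturated.

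Levels below are log2 of the processed signal minus the array's 75th percentile, with n = 3 arrays per group. With this scaling the median change over all 44300 probes tested was 0.20 at 1 dpi against Ctrl, 0.08 at 3 dpi against Ctrl and -0.11 at 3 dpi against 1 dpi. Scaling to the array median gave -0.12, -0.08 and 0.07. The medians over all histone probes are therefore also given relative to the all-probe median. A probe is said to have risen or fallen at an adjusted p under 0.05 by limma, and is called when the change is also at least 2-fold.

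Histone probes read different parts of their transcripts, and many read more than one gene. They were sorted, after the values were seen, into 4 classes by their sequence and place in the target. The class most open to cross-matching is 9 H2A probes that share a run of at least 25 bases with another of the group. Outside it, Hist1h4j A_55_P2125013 and Hist1h4k A_55_P2091147 share a run of 26 bases and may cross-match as well. A further 9 probes hold the start of the stem-loop, 20 lie more than 500 bases into their target (1000 for H1) and are called distal, and 30 are other probes. Of the 68 probes, 20 are listed against more than 1 RefSeq accession by the array files.

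The 9 H2A probes are shown because all of them rose at 1 dpi and long runs of their letters are the same. Capitals mark bases that differ from the Hist1h2ak probe in an ungapped alignment, over the stretch where the probes overlap. All are H2A genes, on chromosome 13 except Hist2h2aa2 and Hist2h2ac on chromosome 3 (mm9). The Hist1h2an and Hist1h2ao probes overlap at chr13:21902669-21902728 and chr13:21902695-21902754, and the array files give the Hist1h2ai stem-loop probe a start of 21902706, although RefSeq places the promoters of these 3 genes apart.
Hist1h2ak: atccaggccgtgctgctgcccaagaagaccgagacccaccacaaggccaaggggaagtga
Hist1h2aa: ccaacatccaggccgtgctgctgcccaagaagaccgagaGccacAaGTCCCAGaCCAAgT
Hist1h2af: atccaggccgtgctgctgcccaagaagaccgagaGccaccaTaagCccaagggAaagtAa
Hist1h2ag: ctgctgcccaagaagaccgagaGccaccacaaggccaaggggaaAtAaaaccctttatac
Hist1h2ah: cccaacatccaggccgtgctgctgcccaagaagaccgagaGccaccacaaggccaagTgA
Hist1h2an: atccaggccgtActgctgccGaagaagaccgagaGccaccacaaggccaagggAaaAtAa
Hist1h2ao: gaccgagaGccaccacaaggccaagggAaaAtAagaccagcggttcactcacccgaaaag
Hist2h2aa2: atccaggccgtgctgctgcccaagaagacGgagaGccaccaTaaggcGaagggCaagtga
Hist2h2ac: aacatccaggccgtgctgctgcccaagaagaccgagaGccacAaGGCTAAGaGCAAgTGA

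Over the overlap, 5 of 60 bases of Hist1h2af, 6 of 60 of Hist1h2an, 5 of 60 of Hist2h2aa2, 3 of 54 of Hist1h2ah, 3 of 48 of Hist1h2ag and 4 of 34 of Hist1h2ao differed from Hist1h2ak. Hist1h2aa (14 of 55) and Hist2h2ac (16 of 57) differed most. The longest run shared by any pair was 45 bases, between Hist1h2aa and Hist2h2ac. A signal on these probes may come from other H2A paralogues as well as from the named gene.

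The stem-loop and the polyadenylation signal are shown from 30-base windows of probes whose genes are described below. Capitals mark the stem-loop letters, or the polyadenylation signal AATAAA. Hist1h3a and Hist2h2bb carry the stem-loop in the H3 probe A_51_P518621 and the H2B probe A_55_P2036883, and Hist3h2ba and Hist2h2be carry AATAAA in the H2B probes A_55_P2036813 and A_55_P2904646, at base 542 and base 2534 of their targets.
Hist1h3a stem-loop: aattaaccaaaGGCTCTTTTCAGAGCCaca
Hist2h2bb stem-loop: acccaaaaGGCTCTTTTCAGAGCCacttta
Hist3h2ba signal: gttcataatggtattAATAAAtttggttca
Hist2h2be signal: gatcgAATAAAtccattcactgcatgtgca

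At 1 dpi against Ctrl the family did not move as a block. The cross-matching H2A probes and several H4, H3 and H1 probes were higher to a degree that depended on the scaling. A set of distal H2A and H2B probes was lower. The median over the 68 probes was 0.23, which is 0.03 relative to the all-probe median, and it was positive in the 75th-percentile scaling and negative in the array-median (-0.09), quantile (-0.03), normexp (-0.02) and deposited (-0.04) scalings.

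By limma, 0 histone probes were called higher, where 11.0% of all probes were, and 2 were called lower, where 3.24% were. At an adjusted p under 0.05 alone, 29 rose, where 33.5% of all probes did, and 11 fell, where 21.8% did. At an unadjusted p under 0.05 there were 41 in either direction, and no alternative tried gave a probe called higher. The balance turned with the scaling: 12 rose and 20 fell in the array-median, 15 and 16 in the quantile, 23 and 16 in the normexp scaling, and 10 and 14 of 56 in the deposited table. Of the 29 that rose, 20 kept that direction under every scaling tested, and all 11 that fell did.

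Linker histone H1, which binds the DNA between nucleosomes, had 3 probes that rose and 1 that fell, which became 1 and 2 in the array-median scaling. Hist1h1t, the testis-type linker histone, stood at -2.68, -2.52 and -2.30 on the Ctrl arrays, -1.72, -1.78 and -1.76 at 1 dpi, and -2.38, -2.65 and -2.51 at 3 dpi. The 1 dpi arrays were the highest with no overlap, and the rise was 0.75 (SE 0.11, adjusted p = 0.00094), which was 0.42 in the array-median and 0.40 in the normexp scaling and passed in 5 of 5. Hist1h1e stood at 3.86, 4.09 and 4.01 on the Ctrl arrays and at 4.66, 4.61 and 4.55 at 1 dpi, a rise of 0.62 (SE 0.18, adjusted p = 0.019) that was 0.29 in the array-median scaling and passed in 4 of 5 scalings. Hist1h1d A_52_P10683 rose from 1.88, 1.95 and 1.96 to 2.46, 2.41 and 2.27 (0.45, adjusted p = 0.034), which was 0.13 in the array-median scaling and passed in 3 of 4. Its distal probe A_55_P2183508 went from -4.93, -4.88 and -4.94 to -5.62, -5.13 and -6.46 and was well above background on 1 of 3 arrays at 1 dpi, so the size of its drop is not known: the fit gave -0.82 (adjusted p = 0.044), -0.46 without 1 dpi replicate 3, -1.12 without 1 dpi replicate 2 and -0.32 under normexp. The change was -1.14 in the array-median scaling and -1.35 in both the quantile scaling and the deposited table, and it passed the call threshold in 4 of 18 alternatives. Hist1h1a (0.30, or -0.02 in the array-median scaling), Hist1h1b (0.13, or -0.20) and the Hist1h1c probes (-0.11 and -0.04) did not pass the test.

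In H2A, 11 of 21 probes rose and 3 fell. All 9 cross-matching probes rose, by 0.80 to 0.93, with medians of 0.56 in the array-median, 0.20 in the quantile, 0.21 in the normexp and 0.18 in the deposited scaling. Of the 9, 9 passed in the array-median, 1 in the quantile and 6 in the normexp scaling, and 0 of 8 in the deposited table by limma, so whether most of them passed depended on the scaling. Hist1h2ah, the brightest of them, stood at 7.88, 8.01 and 8.06 on the Ctrl arrays, 8.90, 8.72 and 8.73 at 1 dpi, and 8.10, 7.85 and 7.94 at 3 dpi. Every 1 dpi array was above every other array on this scale. Before scaling, its mean log2 signal was 17.92 in Ctrl and 17.70 at 1 dpi, and its change was 0.04 under quantile normalisation. The 884 probes brighter than 6 over the whole array had a median of 0.44 at 1 dpi, and the 15 histone probes among them 0.84. The 12 H2A probes outside the group had a median of 0.05, which turned negative in the other 4 scalings (-0.27 to -0.15), with 2 risen and 3 fallen. Among these, the distal probe of Hist1h2ac fell from 1.098, 1.06 and 1.14 to 0.12, 0.23 and 0.34, by 0.87 (SE 0.07, adjusted p = 6.5e-05), and the groups were far apart. Hist1h2ae fell by 0.37 and Hist1h2ad by 0.33.

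H2B held both called probes, each distal, and its median of -0.07 was negative in all 5 scalings. The count of 2 was 1 without Ctrl replicate 1 or without 1 dpi replicate 1. Hist3h2ba (A_55_P2036813) stood at -0.64, -0.73 and -0.68 on the Ctrl arrays, -1.87, -1.81 and -1.78 at 1 dpi, and -1.47, -1.81 and -1.57 at 3 dpi. Ctrl lay above both irradiated groups, and the fall at 1 dpi was 2.20-fold (log2 -1.14, SE 0.09, adjusted p = 5.5e-05). Hist2h2be (A_55_P2904646) stood at 1.12, 1.06 and 1.06, then -0.06, 0.08 and 0.19, then 0.50, 0.53 and 0.46. Its 3 groups did not overlap, the fall at 1 dpi was 2.02-fold (log2 -1.01, SE 0.08, adjusted p = 3.5e-05), and it dropped under 2-fold in 7 of 19 alternatives. The other Hist2h2be probe, also distal, fell by 0.61 (adjusted p = 0.00054), and Hist1h2bq fell by 0.90 (adjusted p = 0.00024). The Hist3h2ba probe at the stem-loop did not pass the test (-0.07, adjusted p = 0.64).

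Not every distal H2B probe was lower. Hist1h2be rose by 0.73 (adjusted p = 0.0024), which was 0.41 in the array-median scaling and passed in 5 of 5, and Hist1h2bc by 0.42 (adjusted p = 0.0012), which was 0.095 and passed in 4 of 5. Over H2B, 3 probes rose and 6 fell, which became 1 and 10 in the array-median scaling. Hist2h2bb gave opposite readings: its stem-loop probe rose from 2.83, 2.72 and 2.66 to 3.36, 3.18 and 3.20 (0.51, adjusted p = 0.011, but 0.19 in the array-median scaling and passed in 3 of 4), and its distal probe A_51_P361620 fell by 0.47 (adjusted p = 0.025) with overlapping arrays.

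In H3, 5 of 10 probes rose and 1 fell, and in H4, 7 of 11 rose and none of the 11 fell by limma, where 8 had an unadjusted p under 0.05. In the array-median scaling 0 H3 probes rose and 2 fell, and 1 H4 probe rose and 1 fell. Under quantile normalisation 3 H3 probes rose and 1 fell, and 4 H4 probes rose and 2 fell. The type medians were 0.23 and 0.32, which turned negative in the array-median scaling (-0.09 and -0.01), and for H4 also under normexp (-0.01), as the H1 median of 0.22 did in the array-median scaling (-0.11). Of these probes, Hist1h4h rose by 0.83 (adjusted p = 0.0065) and Hist2h3c2 by 0.68 and 0.49 on its 2 probes, which were 0.50, 0.36 and 0.17 in the array-median scaling. Hist1h3g, read at its stem-loop, fell by 0.27 (adjusted p = 0.017). Hist4h4, the single gene of the Hist4 cluster, stood at 4.55, 4.49 and 4.45 on the Ctrl arrays and 4.77, 4.64 and 4.62 at 1 dpi, which did not pass (0.18, adjusted p = 0.058, or -0.15 in the array-median scaling). In Hist3, the Hist3h2a probes changed by 0.33 (adjusted p = 0.093) and 0.32 (adjusted p = 0.010), the latter becoming -0.01 in the array-median scaling, and the pseudogene probe Hist3h2bb-ps by 0.01 (adjusted p = 0.94), or -0.31 in the array-median, -0.50 in the quantile and -0.14 in the normexp scaling.

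**Figure D2:**
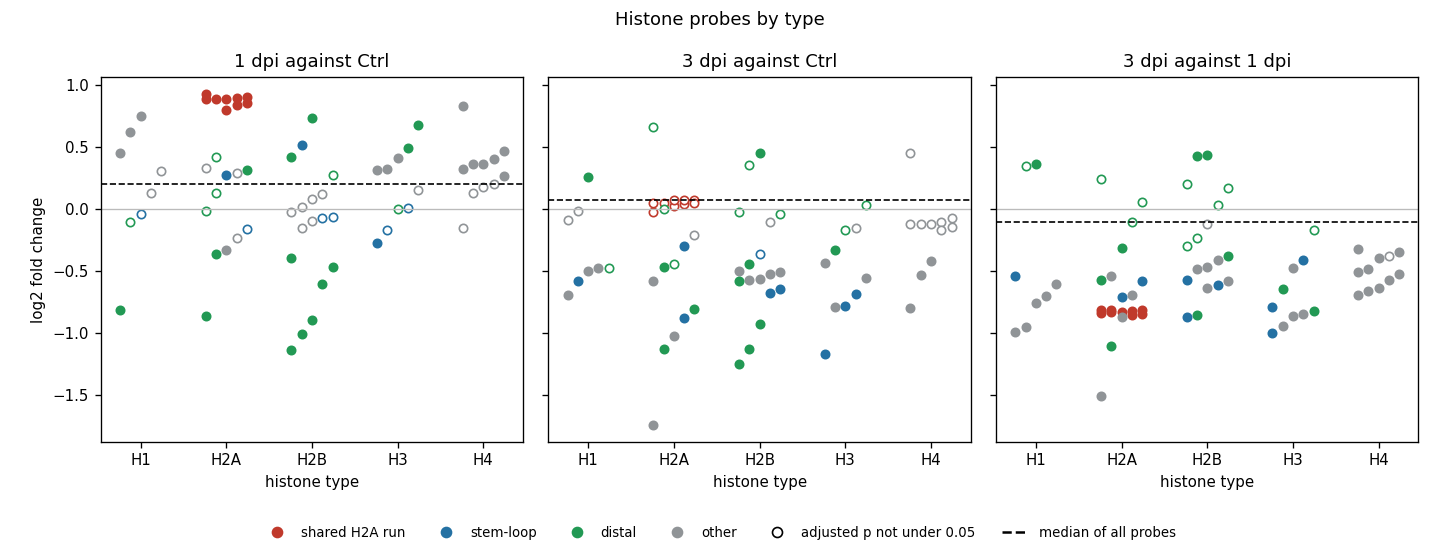
Log2 fold change of each of the 68 histone probes by type in the 3 comparisons (75th-percentile scaling; filled points have an adjusted p under 0.05, colours give the class of probe, and the dashed line is the all-probe median). At 1 dpi the 9 cross-matching H2A probes sit between 0.80 and 0.93, a height that falls to a median of 0.20 under quantile normalisation. At 3 dpi against Ctrl 54 of 68 points lie under 0, where 18872 of all 44300 probes tested do.

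At 3 dpi against Ctrl 54 of 68 histone probes had a negative change, where 18872 of all 44300 probes tested did. Of the 54, 34 fell. Most H2B and H3 probes and 4 of 8 H1 probes were lower, 6 probes of H2A, H2B and H3 were called lower, 3 of 11 H4 probes fell, and the cross-matching H2A probes lay near Ctrl. The median over the 68 probes was -0.39, or -0.47 relative to the all-probe median, and it was negative in all 5 scalings (-0.54 to -0.35).

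By limma, 0 probes were called higher, where 6.64% of all probes were, and 6 were called lower, where 1.83% were. At an adjusted p under 0.05, 2 rose, where 16.2% of all probes did, and 34 fell, where 16.5% did. At an unadjusted p under 0.05 there were 42 in either direction. All 34 that fell and both that rose kept their direction under every scaling tested. The 2 that rose became 1 without Ctrl replicate 3 or without 3 dpi replicate 2. By limma they became 0 in the array-median scaling, with 2 higher at an unadjusted p under 0.05, and the count was 3 in the quantile scaling, 4 under normexp and 2 of 56 in the deposited table. By mean level, the 11 histone probes below -2 had a median of -0.45 (all probes 0.21), the 24 between -2 and 2 of -0.58 (all -0.04), the 18 between 2 and 6 of -0.40 (all 0.04), and the 15 above 6 of 0.02 (all 0.07).

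H1 probes fell in 4 of 8 cases. Hist1h1a stood at 1.68, 1.48 and 1.51 on the Ctrl arrays, 1.97, 1.84 and 1.77 at 1 dpi, and 1.22, 0.73 and 0.64 at 3 dpi. Its 3 dpi arrays were the lowest with no overlap, a fall of 0.69 (SE 0.15, adjusted p = 0.0098). Hist1h1b fell from 4.54, 4.72 and 4.82 to 4.05, 4.27 and 4.33 (-0.48, adjusted p = 0.0071), and Hist1h1d (A_52_P10683) fell by 0.50 (adjusted p = 0.036). The Hist1h1c stem-loop probe A_55_P2500796 fell from 2.24, 2.01 and 2.01 to 1.55, 1.51 and 1.45 (-0.58, SE 0.09, adjusted p = 0.0022), while its distal probe A_51_P516133 rose from 3.995, 3.93 and 3.89 to 4.19, 4.23 and 4.15 (0.25, SE 0.06, adjusted p = 0.013), which was 0.10 in the array-median scaling and passed in 3 of 4. The 2 probes lie at chr13:23831330-23831389 and chr13:23832018-23832077. Hist1h1e (-0.09), Hist1h1t (-0.01) and the distal Hist1h1d probe (-0.47) did not pass the test.

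H2A held the largest fall except under normexp, where Hist1h2bg of H2B fell most (-1.18, against -0.88 for Hist2h2ac). Hist2h2ac, read by A_55_P2714434 at chr3:96024292-96024351, stood at -2.96, -3.07 and -3.12 on the Ctrl arrays, -3.24, -3.26 and -3.36 at 1 dpi, and -4.41, -4.85 and -5.13 at 3 dpi. The 3 dpi arrays lay far under the others, a 3.35-fold fall (log2 -1.74, SE 0.17, adjusted p = 0.00015). Its other probe, of the cross-matching group at chr3:96024378-96024437, changed by 0.05 (adjusted p = 0.74). Hist1h2ai (A_66_P115902, distal) stood at -2.29, -2.61 and -2.58, then -2.40, -2.63 and -2.51, then -3.48, -3.67 and -3.71. Ctrl and 1 dpi overlapped and 3 dpi lay under both, a 2.19-fold fall (log2 -1.13, SE 0.11, adjusted p = 2e-04). The Hist1h2ai stem-loop probe fell from 2.38, 2.55 and 2.55 to 1.79, 1.52 and 1.53 (-0.88, adjusted p = 0.00046). Hist1h2ad stood at -2.26, -2.32 and -2.40 on the Ctrl arrays, -2.71, -2.57 and -2.69 at 1 dpi, and -3.26, -3.50 and -3.29 at 3 dpi. It was lower in each group in turn without overlap, 2.04-fold at 3 dpi (log2 -1.03, SE 0.09, adjusted p = 7.3e-05).

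Those 3 calls ended under normexp, where the changes were -0.88 for Hist2h2ac, -0.75 for Hist1h2ai and -0.68 for Hist1h2ad with the direction kept. Over all 19 alternatives the change was under 2-fold in 1 for Hist2h2ac, 1 for Hist1h2ai and 4 for Hist1h2ad. The 12 H2A probes outside the cross-matching group had a median of -0.53, negative in all 5 scalings, with 8 fallen. The 9 probes inside it had a median of 0.05, which was -0.10 in the array-median scaling and 0.02 in the other 3. Hist1h2al, a pseudogene by its RefSeq symbol H2af-ps2, is read by a lone probe at chr13:51295494-51295553, apart from the other Hist1 probes. It was well above background on 2 of 3 Ctrl arrays and did not pass (0.66, adjusted p = 0.062, and 0.10 under normexp).

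In H2B, 12 of 18 probes fell and 1 rose, with a median of -0.52 that was negative in all 5 scalings. Hist1h2bg stood at 1.33, 0.98 and 0.95 on the Ctrl arrays, 0.71, 0.68 and 0.68 at 1 dpi, and -0.20, -0.15 and -0.15 at 3 dpi. Each group lay under the one before, and the fall at 3 dpi was 2.39-fold (log2 -1.25, SE 0.10, adjusted p = 6.5e-05). Hist1h2bq stood at 0.76, 0.89 and 0.88, then -0.28, 0.07 and 0.04, then -0.31, -0.27 and -0.28. Ctrl was above every irradiated array, and the fall at 3 dpi was 2.19-fold (log2 -1.13, SE 0.10, adjusted p = 1e-04). Hist3h2ba fell on both probes, by 0.93 distally and 0.65 at the stem-loop. Hist1h2bc was the H2B probe that rose (0.45, SE 0.07, adjusted p = 0.0013), from 4.45, 4.598 and 4.51 to 4.97, 5.01 and 4.92, which was 0.30 in the array-median scaling and passed in 4 of 5.

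In H3, 7 of 10 probes fell, with a median of -0.50 that was negative in all 5 scalings. Hist1h3a, read at its stem-loop, stood at -0.16, 0.02 and -0.09 on the Ctrl arrays, -0.25, -0.19 and -0.31 at 1 dpi, and -1.11, -1.32 and -1.33 at 3 dpi. The 3 dpi arrays were far under the others, a 2.26-fold fall (log2 -1.17, SE 0.09, adjusted p = 3.5e-05). Hist1h3f (-0.80), Hist1h3i (-0.79) and Hist1h3g (-0.69) also fell, and the 6 H3 probes of Hist1 had a median of -0.74. In H4, 3 of 11 probes fell, Hist1h4m (-0.80), Hist1h4i (-0.54) and Hist1h4c (-0.42), and the median of -0.13 was negative in all 5 scalings. Whether H4 differed from the other types was not tested. Hist4h4 (-0.17, adjusted p = 0.10), the Hist3h2a probes (-0.21 and -0.00) and Hist3h2bb-ps (-0.11) did not pass.

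**Figure D3:**
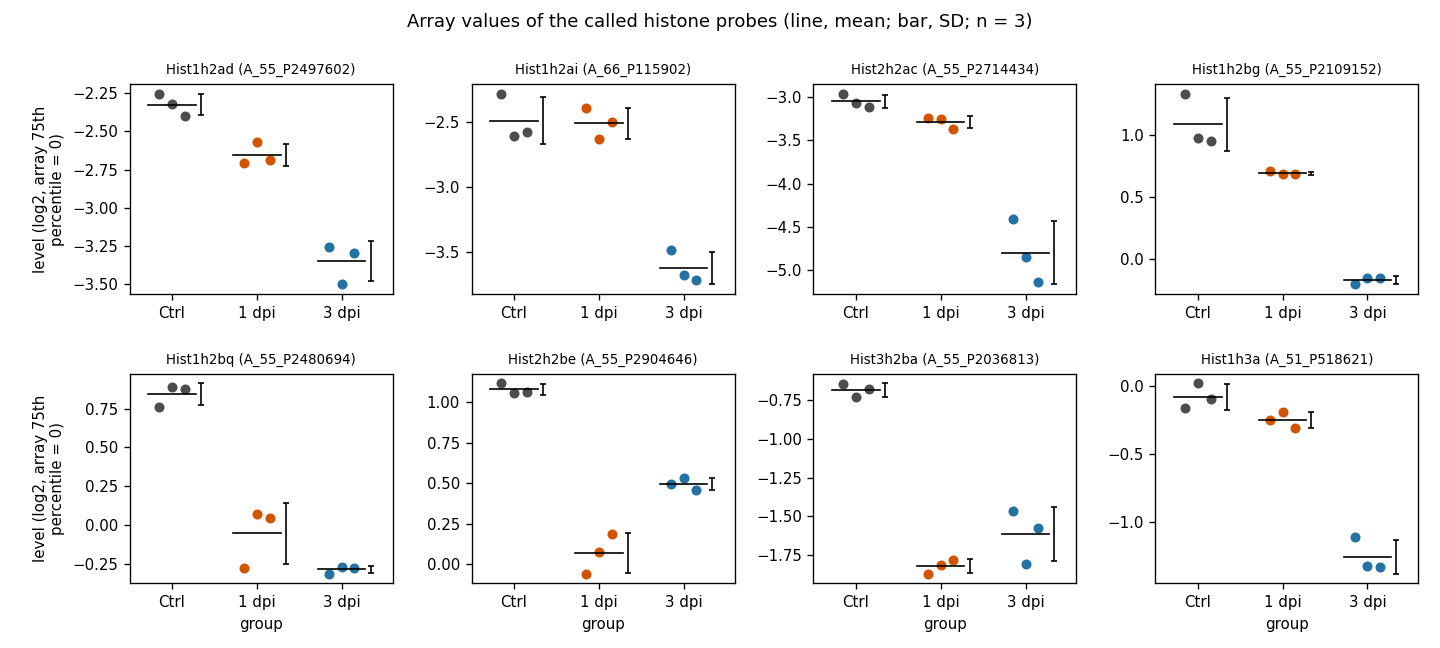
Level on each array of the 8 histone probes called in any comparison (log2, each array's 75th percentile set to 0; points are arrays, the line is the mean and the bar the SD, n = 3). Hist2h2be and Hist3h2ba are lowest at 1 dpi (means 0.07 and -1.82), and the other 6 are lowest at 3 dpi, as Hist1h3a at -1.25.

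Between the time points the family was lower at 3 dpi. This comparison shares its arrays with the other 2. H2A, H3 and H4 probes were lower nearly throughout, H2B probes went both ways, and 1 distal probe each of Hist2h2be, Hist2h2bb and Hist1h1c was higher. The median was -0.58, or -0.47 relative to all probes, and was negative in all 5 scalings (-0.58 to -0.31).

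By limma, 0 probes were called higher, where 3.94% of all probes were, and 3 were called lower, where 4.63% were. At an adjusted p under 0.05, 3 rose, where 19.8% of all probes did, and 53 fell, where 25.8% did. At an unadjusted p under 0.05 there were 57 in either direction. All 3 that rose and 51 of the 53 that fell kept their direction under every scaling tested. The count called lower was 8 without 3 dpi replicate 1 and 6 without 1 dpi replicate 3, but 1 in the array-median and 1 in the normexp scaling. The 53 that fell became 36 in the array-median, 37 in the quantile and 41 in the normexp scaling, and 30 of 56 in the deposited table.

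The 3 called probes were Hist2h2ac A_55_P2714434 (2.85-fold, log2 -1.51, SE 0.17, adjusted p = 0.00033), Hist1h2ai A_66_P115902 (2.16-fold, log2 -1.11, SE 0.11, adjusted p = 0.00025) and Hist1h3a (2.01-fold, log2 -1.005, SE 0.09, adjusted p = 0.00012). Hist1h3a was under 2-fold in 7 of 19 alternatives, Hist1h2ai in 4 and Hist2h2ac in 1. Under normexp the changes were -0.57 for Hist2h2ac, -0.53 for Hist1h2ai and -0.87 for Hist1h3a. Hist1h1a fell by 0.997 (adjusted p = 0.0014), just short of 2-fold. In H4, 10 of 11 probes fell, by 0.32 to 0.69, with Hist1h4c at -0.69, Hist1h4i at -0.66 and Hist1h4m at -0.64. Of the 11 H4 probes, 3 fell in the array-median, 6 in the quantile and 7 in the normexp scaling, and Hist1h4d A_55_P2106569 and Hist1h4k A_55_P2091145 turned positive under quantile normalisation (0.11 and 0.05). The cross-matching H2A probes fell by 0.81 to 0.85, with a median of -0.19 under quantile normalisation. There 0 of the 9 passed by limma, against 9 in the array-median scaling, 2 under normexp and 0 of 8 in the deposited table. Hist1h2ac (0.06) and Hist1h2bq (-0.23) did not pass, and of the distal probes of Hist2h2be, A_55_P2904646 rose by 0.43 (adjusted p = 0.0028) and A_51_P430071 did not pass (0.16, adjusted p = 0.13). Hist1h1c rose by 0.36 on its distal probe and fell by 0.54 at its stem-loop.

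**Figure D4:**
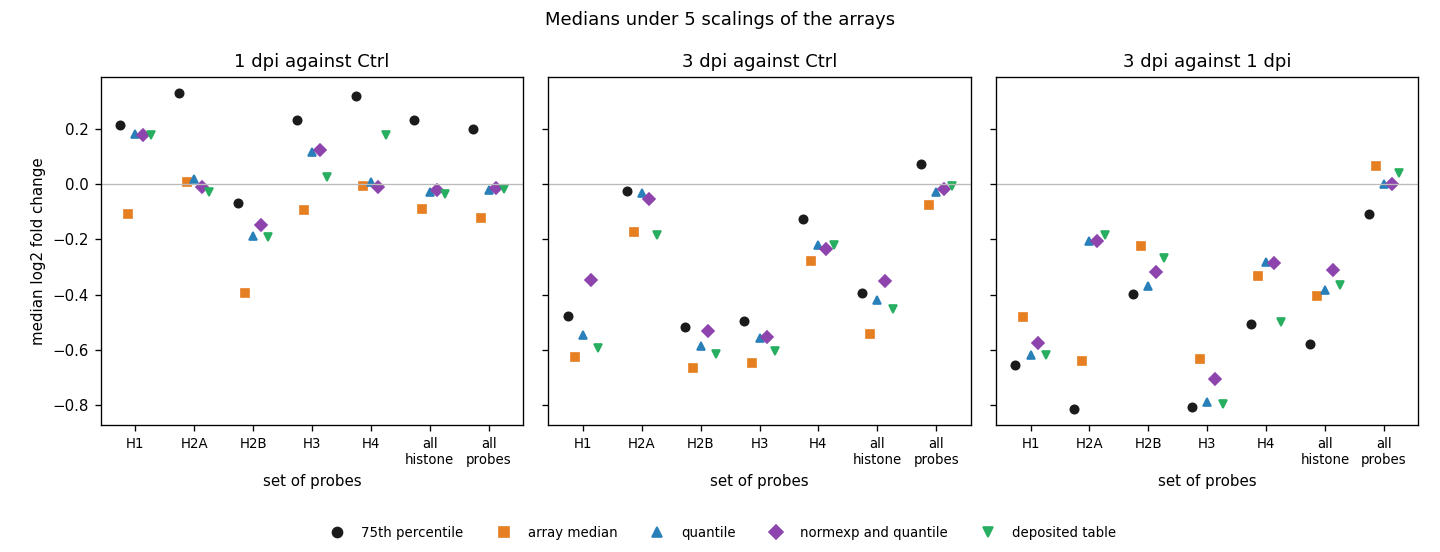
Median log2 fold change by histone type, over all histone probes and over all probes, under 5 scalings of the arrays. At 1 dpi the median over all histone probes runs from -0.09 to 0.23 and changes sign with the scaling, while at 3 dpi it stays between -0.54 and -0.35.

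The classes of probe, made after the values were seen, are given by median. The 9 stem-loop probes had medians of -0.06 at 1 dpi and -0.68 at 3 dpi, negative in all 5 scalings at both times, with 8 of 9 fallen at 3 dpi. The 20 distal probes had medians of -0.06 and -0.39, also negative in all 5 scalings, and at 1 dpi they spread from -1.14 (Hist3h2ba) to 0.73 (Hist1h2be), with 9 fallen and 5 risen. The 30 other probes had medians of 0.28 and -0.46, the former negative in the other 4 scalings (-0.05 to -0.01). Between 1 and 3 dpi, 9 of 9 stem-loop, 28 of 30 other and 7 of 20 distal probes fell, where 25.8% of all probes did. In the array-median scaling these counts were 7, 17 and 3, and under quantile normalisation 9, 22 and 6. Whether the classes differed was not tested.

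**Figure D5:**
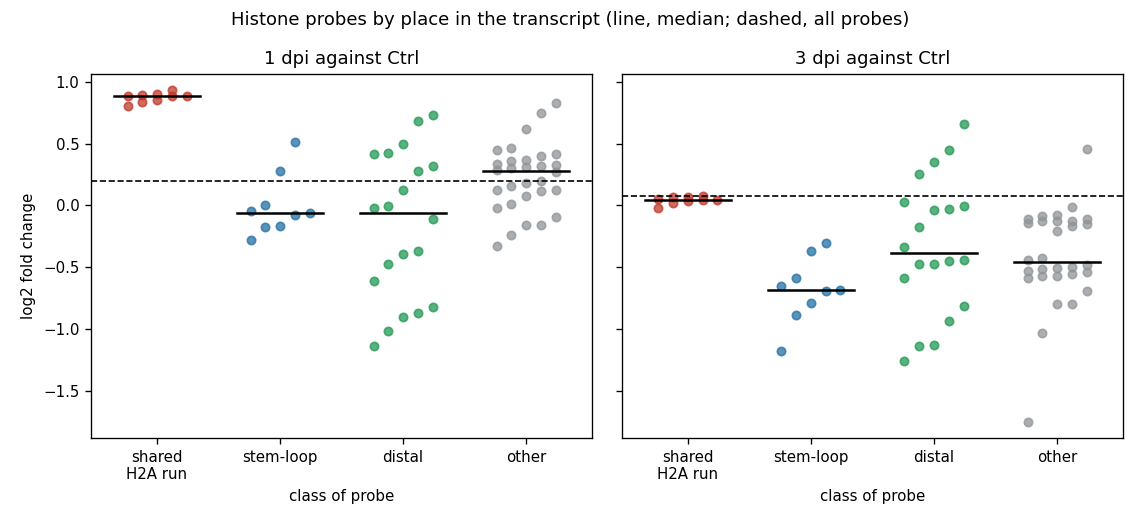
Log2 fold change of the histone probes by class (points are probes, the solid line is the class median, the dashed line the all-probe median; 75th-percentile scaling). The stem-loop probes move from a median of -0.06 at 1 dpi to -0.68 at 3 dpi, and the cross-matching H2A probes from 0.88 to 0.05, the former being 0.20 under quantile normalisation.

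The blocks along the chromosomes are given by median, with no test between them. In Hist1, 15 genes at chr13:21808994-22133198 had a median of -0.48 at 3 dpi and 26 genes at chr13:23622937-24026718 had -0.45. In Hist2, 10 genes at chr3:96024171-96082813 had -0.35, and in Hist3, 3 genes at chr11:58762804-58769013 had -0.21. These medians were negative in all 5 scalings, while the lone probe of the pseudogene Hist1h2al, dim in Ctrl, was positive in all 5. At 1 dpi they were 0.13, 0.27, 0.30 and 0.01, each of which turned negative in at least 1 other scaling.

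Some H2A and H2B genes sit head to head and share a promoter region. Of 6 such pairs, Hist1h2ae and Hist1h2bg read -0.37 and -0.39 at 1 dpi and -0.47 and -1.25 at 3 dpi. Hist1h2bf and Hist1h2ad read -0.06 and -0.33, then -0.68 and -1.03. In the other 4 pairs the H2A gene had a cross-matching probe, as in Hist1h2bq and Hist1h2ao, which read -0.90 and 0.88 at 1 dpi.

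Promoters from RefSeq (GRCm38.p6) were found for 49 of the 56 genes, and the 250 bases before the start were searched on both strands. The octamer ATTTGCAT was in 12 of 49 (24.5%) against 1.6% of all 27025 promoters, CCAAT in 41 (83.7%) against 34.5%, and TATAAA in 24 (49.0%) against 13.0%. The octamer letters were in 7 of 17 H2A and 5 of 11 H2B promoters, and in 0 of 6 H1, 0 of 7 H3 and 0 of 8 H4 promoters, a count from a letter search with no test. All 6 H1, all 17 H2A and all 11 H2B promoters held CCAAT, and 5 of 7 H3 and 2 of 8 H4 promoters did. The 250 bases before the start are shown for Hist2h2ac (chr3:96220881-96221130, minus strand) and Hist1h2bg (chr13:23571150-23571399, plus strand). A probe of each fell most at 3 dpi, except under normexp, where Hist1h2bq (-1.04) and Hist1h3a (-1.03) fell more than Hist2h2ac (-0.88). Capitals mark the motifs, and both promoters hold all 3. A match is a match of letters only.
Hist2h2ac: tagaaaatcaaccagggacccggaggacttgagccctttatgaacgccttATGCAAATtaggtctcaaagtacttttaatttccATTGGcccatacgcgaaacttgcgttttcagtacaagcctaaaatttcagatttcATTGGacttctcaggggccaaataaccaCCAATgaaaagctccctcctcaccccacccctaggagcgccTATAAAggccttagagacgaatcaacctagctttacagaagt
Hist1h2bg: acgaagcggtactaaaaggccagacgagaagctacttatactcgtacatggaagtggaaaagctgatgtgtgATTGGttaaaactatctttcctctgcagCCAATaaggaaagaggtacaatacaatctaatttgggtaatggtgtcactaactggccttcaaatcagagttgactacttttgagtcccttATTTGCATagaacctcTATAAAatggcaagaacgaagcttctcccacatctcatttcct

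Genes that make and process histone mRNA were read as a list. For these and the lists after them, 33.5% of all probes rose and 21.8% fell at 1 dpi, 16.2% and 16.5% at 3 dpi, and 19.8% and 25.8% against 1 dpi. Of 36 probes for 19 genes, 20 fell and 0 rose at 1 dpi by limma, with 20 at an unadjusted p under 0.05, and the median was -0.31 (-0.64 to -0.28 over the scalings). At 3 dpi 6 fell and 2 rose (median -0.04), and against 1 dpi 16 rose and 2 fell (median 0.22). Npat, the coactivator of histone gene transcription at the histone locus body, stood at -0.38, -0.21 and -0.22 on the Ctrl arrays, -1.81, -1.39 and -1.42 at 1 dpi, and -0.55, -0.49 and -0.36 at 3 dpi. It was low at 1 dpi alone, 2.42-fold under Ctrl (log2 -1.27, SE 0.12, adjusted p = 0.00012), and 2.11-fold higher at 3 dpi than at 1 dpi (adjusted p = 4e-04), the latter under 2-fold in 2 of 19 alternatives.

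Other genes of this list, named after their values were seen, are given by probe. Casp8ap2, also of the locus body, fell by 0.92 at 1 dpi on A_51_P517096 (adjusted p = 3.7e-05), and its other probe did not pass (-0.19, adjusted p = 0.27). Slbp, on A_55_P2071799, went from 1.18, 0.973 and 0.996 to -0.10, 0.24 and 0.27 at 1 dpi and 0.65, 1.16 and 1.20 at 3 dpi, so that Ctrl and 3 dpi overlapped and 1 dpi lay under both (-0.91 at 1 dpi, adjusted p = 0.0027). Another Slbp probe, A_55_P2716486, was lowest at 3 dpi (-0.68, adjusted p = 0.00093).

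Cell cycle genes were also read as lists. Of 54 probes for 30 S phase genes, 8 rose and 20 fell at 1 dpi (median -0.18), and 8 rose and 5 fell at 3 dpi (median -0.02). The level of Pole on A_52_P269225, a replicative polymerase subunit, was -4.53, -4.90 and -4.70 on the Ctrl arrays and in background on 3 of 3 arrays at 1 dpi, at least 1.48-fold lower, and the other Pole probes fell by 0.36 and 0.27. Of 28 probes for 18 G2 and M phase genes, 1 rose and 14 fell at 1 dpi (median -0.31), and 8 rose and 2 fell at 3 dpi (median 0.13, or -0.02 in the array-median scaling). Top2a, the topoisomerase that untangles replicated DNA, went from 1.33, 1.71 and 1.68 to 0.47, 0.61 and 0.58 at 1 dpi and 0.91, 0.87 and 0.87 at 3 dpi, a 2.03-fold fall at 1 dpi (SE 0.11, adjusted p = 0.00017) on A_55_P2713705 that was under 2-fold in 6 of 19 alternatives, and its 3 other probes fell by 0.40 to 0.84. Summed levels of the S phase list were 650.1, 596 and 588 on the Ctrl arrays, 559.8, 569.7 and 572 at 1 dpi, and 646, 616 and 608 at 3 dpi. None of the 54 S phase probes was called at 3 dpi by limma, where 6.64% of all probes were called higher and 1.83% lower. At an unadjusted p under 0.05 there were 18.

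Replication-independent histone variants had 6 probes risen and 7 fallen of 19 at 1 dpi, and 0 risen and 8 fallen at 3 dpi by limma, with 8 at an unadjusted p under 0.05. The medians were -0.13 and -0.17, negative in all 5 scalings. H1f0, the linker histone of resting cells, stood at -2.42, -2.72 and -2.75 on the Ctrl arrays, -3.83, -3.71 and -3.55 at 1 dpi, and -3.45, -2.66 and -2.58 at 3 dpi. It was lowest at 1 dpi (2.09-fold, log2 -1.06, SE 0.23, adjusted p = 0.0053), and was under 2-fold in 5 of 19 alternatives. H1fx on A_51_P114843 fell at 3 dpi from -2.37, -2.31 and -2.32 to -3.86, -3.81 and -4.16 (3.05-fold, log2 -1.61, adjusted p = 0.00024), while its other probe, A_52_P748854, did not pass (-0.05, adjusted p = 0.91). The call on the former ended in 1 of 19 alternatives, where the change was -0.997.

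Histone chaperones, which hand histones to and from DNA, had 8 probes risen and 18 fallen of 48 at 1 dpi (median -0.12), and 1 risen and 15 fallen at 3 dpi (median -0.10), negative in all 5 scalings at both times. Asf1a, a chaperone of H3 and H4, went from -1.12, -1.29 and -1.30 to -2.87, -2.74 and -2.57 at 1 dpi and -2.46, -2.12 and -2.02 at 3 dpi. Ctrl was the highest group, and the fall at 1 dpi was 2.80-fold (log2 -1.49, SE 0.13, adjusted p = 8e-05). Atrx and Cabin1 gave mixed readings by probe. Atrx A_55_P2739157 rose 2.05-fold at 1 dpi (adjusted p = 0.0012), a call that ended in 9 of 19 alternatives, while Atrx A_55_P2925443 fell by 0.48 (adjusted p = 0.0080). Cabin1 A_55_P2886161 was 2.64-fold lower at 3 dpi than at 1 dpi (log2 -1.40, adjusted p = 0.00031), while Cabin1 A_55_P2738952 was higher by 0.70 (adjusted p = 0.00048). The call on the former ended in 1 of 19 alternatives, where the change was -0.46.

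Marker lists of other cell types moved with the same comparisons, and their part in the histone changes was not tested. Beside the counts called below, 11.0% of all probes were called higher and 3.24% lower at 1 dpi. At 3 dpi against Ctrl 6.64% were called higher and 1.83% lower. In the B cell list, 15 of 17 probes were called lower and 1 higher (Ms4a1 A_66_P120649, by 1.44) at 1 dpi, and 14 lower at 3 dpi (medians -2.87 and -2.70), with Vpreb3 at -5.44 and -3.95 and Cd79b the brightest gene. Pax5, the factor that sets B cell identity, was in background on all 3 arrays at 1 dpi, at least 14.3-fold lower on A_52_P429826, while its other probe, A_66_P128859, rose by 0.54 (adjusted p = 0.0092). In the erythroid list, 11 of 17 probes were called lower and 4 higher at 1 dpi and 14 lower at 3 dpi, with Ahsp at -7.64 and -2.62. The brightest erythroid gene was Hba-a1, and the summed level was 273, 219.9 and 234 on the Ctrl arrays, 609, 535 and 535 at 1 dpi, and 143, 143 and 139 at 3 dpi.

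Myeloid lists were higher on some arrays. The neutrophil list, brightest in Mpo, summed to 2251, 2328 and 2315 on the Ctrl arrays, 3695, 3507 and 3482 at 1 dpi, and 2481, 2257 and 2372 at 3 dpi. Its median of 0.50 at 1 dpi was negative in the quantile (-0.11), normexp (-0.10) and deposited (-0.16) scalings, and S100a8 rose by 1.12, which was under 2-fold in 4 of 19 alternatives. The macrophage list, brightest in Csf1r, had 12 of 19 probes called higher at 3 dpi (median 1.22), with Marco at 3.87, and summed to 104, 91.0 and 88.8 on the Ctrl arrays, 130.2, 124 and 129 at 1 dpi, and 239, 232 and 226 at 3 dpi.

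Stromal, endothelial, and T and NK cell lists were also higher at 3 dpi. In the stromal list, brightest in Cxcl12, 19 of 23 probes were called higher at 3 dpi (median 3.19), with Adipoq at 4.24. In the endothelial list 11 of 13 were (median 2.07), with Stab1, its brightest gene, at 4.03, and the summed level was 4.85, 4.2 and 4.31 on the Ctrl arrays, 14.9, 14.1 and 14.1 at 1 dpi, and 27.1, 22.7 and 23.2 at 3 dpi. In the T and NK cell list 6 of 17 were (median 0.42), with Gzma at 2.23, and Nkg7, its brightest gene, in a list that summed to 45.3, 47.7 and 45.7 on the Ctrl arrays, 65.7, 61.7 and 62.0 at 1 dpi, and 59.2, 53.7 and 52.3 at 3 dpi.

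The stem and progenitor list, brightest in Cd34, had 10 of 18 probes called lower at 3 dpi (median -1.42), with Meis1 at -2.60, and summed to 92.2, 87.0 and 86.0 on the Ctrl arrays, 55.5, 58.2 and 59.3 at 1 dpi, and 43.3, 41.6 and 39.0 at 3 dpi. The dendritic cell list, brightest in Siglech and with Xcr1 in background, had 2 probes called higher and 1 lower of 15 at 3 dpi (median -0.08), with Flt3 at -2.14 on A_66_P116412 and -0.08 (not passed) on A_66_P126155, and summed to 24.99, 46.0 and 47.2 on the Ctrl arrays, 72.4, 67.8 and 65.4 at 1 dpi, and 41.0, 36.4 and 35.6 at 3 dpi. In the megakaryocyte list, Vwf was 2.53-fold lower at 3 dpi (log2 -1.34, adjusted p = 9.6e-06) on A_55_P2169659, while Vwf A_51_P103397 did not pass (-0.04, adjusted p = 0.74). Rab27b A_55_P2714065 was 2.09-fold higher at 1 dpi (adjusted p = 0.0072), but it was well above background on 2 of 3 Ctrl arrays and its call ended in 8 of 18 alternatives, and the other Rab27b probes fell by 0.60 and 0.62.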

How the data were processed

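The authors scanned the arrays with Agilent Feature Extraction 10.7.1.1, which gives a background-subtracted intensity per spot on a linear scale, and deposited a further table of log2 values, 1 per gene name. Spots of a probe were averaged (62976 spots, 3671 of them controls), outlier spots were left out, which lost 20 probes, and log2 intensities were scaled to each array's 75th percentile, taken over all non-control probes. A probe was kept where a whole group of 3 arrays read it clearly over background, and the 44300 kept were tested with limma 3.58.1 in R 4.3.3 (package data.table, version 1.17.8), with 1 mean per group and Benjamini-Hochberg adjustment over all of them. Sequences were read with Python 3.11.15 and plots drawn with matplotlib 3.10.9. An exact permutation test of 3 against 3 arrays cannot go below p = 0.10, and the number of arrays limits the precision.

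Members and lists were chosen with earlier results of these data known. Named histone genes are the up to 20 largest called changes per comparison, all H1, Hist3 and Hist4 genes, genes whose probes gave opposite readings and, per list, up to 3 called genes; others were named after their values were seen. Alternatives were 4 other scalings, no filter or all 9 arrays above background, 6 arrays per fit, replicate and slide blocks, each array left out, 1 probe per gene, an intensity trend, no minimum fold, the methods' unpaired test and changes minus the all-probe median. The fit was also tested on simulated data, whose outcome is not used here.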

Additional observations from a re-analysis of the deposited data

Results flagged for a closer look

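By limma's test of the difference, which is the comparison of 3 dpi with 1 dpi, 56 of 68 histone probes differed at an adjusted p under 0.05 (53 lower, where 25.8% of all probes were, and 3 higher, where 19.8% were). Of those that were lower, 3 also reached 2-fold, a share of the 68 near the 4.63% of all probes that did, and are given here. In the array-median scaling Hist2h2ac alone of the 3 was still called, and under normexp none of them was. The change was under 2-fold in 7 of 19 alternatives for Hist1h3a, 4 for Hist1h2ai and 1 for Hist2h2ac. Hist2h2ac on A_55_P2714434 differed by -1.51 (adjusted p = 0.00033, and -0.57 under normexp), with -0.23 at 1 dpi and -1.74 at 3 dpi. Hist1h2ai on A_66_P115902 differed by -1.11 (adjusted p = 0.00025, and -0.53 under normexp), with -0.02 and -1.13. Hist1h3a differed by -1.005 (adjusted p = 0.00012, and -0.87 under normexp), with -0.17 and -1.17.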

How the results depend on the processing

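Of 970 values of named histone probes under the alternatives, 890 kept their direction and side of the call threshold, 25 dropped under it, 15 passed it and 40 changed sign. Of 1568 values of list genes, 1500 kept both and 68 dropped under the threshold. No alternative called a histone probe higher.

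Array-median scaling gave, at 1 dpi, 12 risen in place of 29, 20 fallen in place of 11, 5 called lower in place of 2, and medians of -0.0912 over all histone probes in place of 0.23, -0.11 for H1, -0.0922 for H3 and -0.01 (-0.0052) for H4. Single probes turned to -0.0202 for Hist1h1a, -0.20 for Hist1h1b, -0.15 for Hist4h4, -0.31 for Hist3h2bb-ps and -0.01 (-0.0075) for Hist3h2a A_52_P615375. At 3 dpi it gave 0 risen in place of 2 and a median of -0.54, and against 1 dpi 1 called lower, a median of -0.41 and Hist3h2bb-ps at 0.0522. Quantile normalisation gave 15 risen and a median of -0.0293 at 1 dpi, with Hist3h2bb-ps at -0.50, Hist1h1b at -0.0378 and Hist1h1c A_55_P2500796 at 0.0138, and 5 risen, a median of -0.39 and Hist3h2bb-ps at 0.11 against 1 dpi. Normexp with quantile normalisation gave 1 called lower at 1 dpi and medians of -0.0211 over all histone probes, -0.01 (-0.0090) for H2A and -0.01 (-0.0082) for H4 and for Hist4h4, with Hist1h1b at -0.0413, Hist1h1c A_55_P2500796 at 0.0229 and Hist3h2bb-ps at -0.14. It gave 4 risen and 3 called lower in place of 6 at 3 dpi, and 1 called lower, a median of -0.31 and Hist3h2bb-ps at 0.0306 against 1 dpi. The deposited log2 table gave 10 risen at 1 dpi, medians of -0.0351 over all histone probes and -0.0286 for H2A, with Hist3h2bb-ps at -0.50, Hist1h1b at -0.0386 and Hist1h1c A_55_P2500796 at 0.0115, and 30 fallen in place of 53, a median of -0.37 and Hist3h2bb-ps at 0.11 against 1 dpi. That table holds 1 value per gene name, so fewer probes were tested. The slide as a random block (consensus correlation 0.567) or a fixed block gave 1 called lower at 1 dpi, Hist1h1c A_55_P2500796 at 0.01 (0.0072) and 0.0347, Hist3h2bb-ps at -0.0311 and -0.0569, and Hist3h2a A_52_P615375 at 0.0143 and 0.0239 at 3 dpi. Also, 1 probe per gene name gave 1 called lower against 1 dpi, and subtracting the all-probe median gave 5 called lower at 1 dpi. Beyond fewer probes or genes, the cause was not tested.

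With each array left out in turn, called lower ran from 1 to 3 at 1 dpi, 5 to 7 at 3 dpi and 2 to 8 against 1 dpi. Risen ran from 22 to 30, 1 to 3 and 2 to 4, and fallen from 9 to 11, 28 to 34 and 49 to 54. The medians ran from 0.19 to 0.27, -0.41 to -0.36 and -0.64 to -0.57. Called lower at 1 dpi was 1 without Ctrl replicate 1, which has a slide of its own, or without 1 dpi replicate 1. Of changes of named histone probes that did not pass the test, 7 changed sign on leaving out an array. At 1 dpi, Hist1h1c A_55_P2500796 ran from -0.11 to 0.0347, Hist3h2ba A_55_P2500757 from -0.16 to 0.01 (0.0093) and Hist3h2bb-ps from -0.10 to 0.17. At 3 dpi, Hist1h1e ran from -0.31 to 0.0342, Hist1h1t from -0.10 to 0.0859 and Hist3h2a A_52_P615375 from -0.0569 to 0.0458, and against 1 dpi Hist1h1d A_55_P2183508 ran from -0.0175 to 0.65.

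Arrays of different groups with the same replicate number were not alike: r across probes lay between -0.09 and 0.13 in 9 pairs, with 1 over 0.1. With the replicate number as a block no count or median moved past its limit.

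The dimmest histone probes limit what can be read: Hist1h1d A_55_P2183508 was well above background on 1 of 3 arrays at 1 dpi.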
